A study of Mus musculus with 6 samples.

Results

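Genes of DNA replication and mitosis were followed in cultured mouse peritoneal macrophages, phagocytes that live in the belly cavity. A list of 42 symbols was looked up in the table of read counts, transcript rows were summed per symbol, and the 30 symbols with 30 or more counts over the 6 libraries were kept, out of 24454 symbols in all. They comprised 10 of 14 replication genes, 15 of 20 mitosis genes and 5 of 8 genes that control G1 phase and the entry into S phase. Of the 12 symbols left out, 6 had no count in any library (Mcm5, Tyms, Aurka, Bub1, Kif20a and Tpx2), and none had more than 6 counts in total. The others left out were Cdc6, Tk1, Cenpa, Ccnd3, Cdk2 and Cdkn1a, of which Cdk2 and Cdkn1a had the most, at 6 counts each. The kept members nearest to the limit were E2f1 (68 counts), Mcm6 (74) and Birc5 (80).

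Every symbol left out has several transcript rows in the table, as do E2f1, Mcm6 and Birc5, whereas the other 27 kept members have 1 row each and between 940 and 23464 counts. Among all symbols, 81.5% of those with several rows had fewer than 30 counts, against 52.9% of those with 1 row. The low counts of these 15 members therefore carry no statement on their expression, and the values of E2f1, Mcm6 and Birc5 are uncertain.

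All cells came from wild-type C57BL6/J male mice aged 6 to 8 weeks. Vehicle was given for 5 h to 1 group, LPS, the endotoxin of bacterial outer membranes, at 10 ng/ml for 4 h to another, and SGA360, which binds the aryl hydrocarbon receptor (AHR), at 10 µM for 1 h and then LPS as above to the third. Each group held 2 libraries of polyA-enriched RNA. For the LPS group the labels name no pretreatment, and nothing in them ties the 2 libraries of a group to different mice or dishes. The p-values therefore measure only library-to-library spread, which may be technical.

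Proliferating cells copy their DNA in S phase and divide in mitosis. The MCM helicase, loaded onto origins by Cdt1 and Cdc6, unwinds the DNA, PCNA clamps the polymerases to it, and ribonucleotide reductase and thymidylate synthase supply the nucleotides. Cyclin D with Cdk4, then cyclin E with Cdk2, release the E2F factors that drive many replication genes, while cyclin B with Cdk1 drives mitosis, and many mitosis genes carry a CHR element in their promoters. Most peritoneal macrophages rest outside the cell cycle, although resident macrophages can divide in place.

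The promoters of members that moved in opposite directions are shown to make these motifs visible. Windows from 250 bases before to 50 bases after the start were available from RefSeq (GRCm38.p6, the assembly of the mm10 build) for 23 of the 30 kept members. In them were searched, on both strands, the E2F-type letters TTTCGCGC, TTTGGCGC, TTTCCCGC and TTTGCCGC, the CHR letters TTTGAA and the CCAAT box CCAAT. Occurrences that overlap each other, as for the E2F-type letters on opposite strands in Mcm6, were each recorded. A member was counted once if any of its windows held a match, and Mcm7 has several windows. The shares of all windows are by single window. Shown 5′ to 3′ on the gene's strand are the 250 bases before the start, with these motifs in capitals, for Rrm2 (chr12:24708004-24708253, plus strand), Pcna (chr2:132253181-132253430, minus strand), Mcm2 (chr6:88898781-88899030, minus strand), Mki67 (chr7:135716380-135716629, minus strand) and Cdk1 (chr10:69352913-69353162, minus strand). Rrm2, Pcna and Mcm2 were lower with LPS, Mki67 was higher, and Cdk1 had no call.
Rrm2: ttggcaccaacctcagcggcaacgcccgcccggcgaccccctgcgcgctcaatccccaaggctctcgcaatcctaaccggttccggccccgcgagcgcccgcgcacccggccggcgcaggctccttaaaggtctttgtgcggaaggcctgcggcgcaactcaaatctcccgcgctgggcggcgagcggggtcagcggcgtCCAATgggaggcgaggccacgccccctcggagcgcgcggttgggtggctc
Pcna: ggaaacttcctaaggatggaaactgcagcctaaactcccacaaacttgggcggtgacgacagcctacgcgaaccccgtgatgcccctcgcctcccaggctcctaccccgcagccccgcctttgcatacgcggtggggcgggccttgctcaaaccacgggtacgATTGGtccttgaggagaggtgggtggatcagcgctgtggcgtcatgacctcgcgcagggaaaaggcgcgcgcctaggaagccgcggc
Mcm2: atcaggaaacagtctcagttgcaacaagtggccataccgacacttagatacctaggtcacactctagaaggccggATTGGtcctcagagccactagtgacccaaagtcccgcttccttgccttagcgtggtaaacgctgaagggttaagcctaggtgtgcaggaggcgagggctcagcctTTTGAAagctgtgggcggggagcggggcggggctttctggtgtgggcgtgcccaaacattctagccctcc
Mki67: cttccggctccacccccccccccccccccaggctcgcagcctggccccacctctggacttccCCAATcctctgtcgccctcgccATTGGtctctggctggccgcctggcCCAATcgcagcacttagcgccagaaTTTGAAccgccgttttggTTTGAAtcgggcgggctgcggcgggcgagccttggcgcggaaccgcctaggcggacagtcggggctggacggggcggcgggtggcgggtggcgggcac
Cdk1: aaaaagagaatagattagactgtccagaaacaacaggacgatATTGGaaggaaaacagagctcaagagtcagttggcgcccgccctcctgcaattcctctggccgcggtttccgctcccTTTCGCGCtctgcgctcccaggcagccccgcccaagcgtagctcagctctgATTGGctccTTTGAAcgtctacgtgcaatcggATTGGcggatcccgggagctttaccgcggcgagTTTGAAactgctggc

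Counted from the start, Mki67 carries the CHR letters at −116 and −98, and Cdk1 at −71 and −15 beside an E2F-type match at −131. Of the lower replication members, Mcm2 has CHR letters at −70. Over the mitosis members CHR letters were present in 10 of 12 windows, against 17.9% of all 32851 windows, and they were found for Mki67 as well as for 9 of the 11 members with no call. E2F-type letters were present for 4 of 8 replication members, against 2.26% of all windows. The 4 were Cdt1, alone among the 5 lower members, and Mcm3, Mcm6 and Mcm7, which had no call. CCAAT boxes were present for 7 of 8 replication and 11 of 12 mitosis members, against 37.4% of all windows. A match is a description of these letters in this window, and its absence says nothing of the factor.

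Total counts per library ran from 7726973 to 9529817. Vehicle replicate 1 stood apart, with 10001 symbols with a count against 12282 to 12643 in the other 5, and 4.92% of its counts from the ribosomal RNA gene Rn45s against at most 0.684%. Levels are TMM-adjusted CPM (a gene's counts per megaread of its library), and changes as log2 fold changes with their standard error (SE). A change is called at a Benjamini-Hochberg adjusted p under 0.05 from edgeR's quasi-likelihood test over all 9389 genes tested, which included all 30 kept members. In LPS against vehicle 1820 genes were called higher and 1593 lower. Without scaling factors these were 1278 and 2178, and the median log2 fold change of all genes went from −0.01 to −0.14. For SGA360+LPS against vehicle they were 1678 and 1429, or 1212 and 1973 without scaling factors, with a median of −0.01 or −0.12.

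The macrophage markers Lyz2, Cd68 and Csf1r had at least 547 CPM in every library, and Itgam, which has several rows, was at 0. Of the 8 macrophage markers tested, 2 rose with LPS, Cd14 (2.98) and Adgre1 (1.299), and 4 fell, Fcgr1 (−2.39), Mertk (−2.14), Mrc1 (−0.87) and Csf1r (−0.34). Of all genes tested 19.4% rose and 17% fell. In bulk RNA, fewer dividing cells and less RNA of a gene per cell cannot be told apart.

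Replication and mitosis genes were well detected in the vehicle cultures. Per kilobase of exon, the cyclin D partner Cdk4 had the highest vehicle level at 330 ± 11.2 CPM per kb (SD, n = 2), followed by the polymerase clamp Pcna at 280 ± 15.9 and the microtubule destabiliser Stmn1 at 118 ± 11.5. These 3 were separated by more than their spread. Next came Ube2c, Rrm1 and Hmgb2, at 61.0 ± 1.77, 60.6 ± 0.718 and 59.7 ± 2.76 CPM per kb, which did not differ beyond their spread. The proliferation marker Mki67 stood at 22.2 ± 0.406 CPM per kb. The lowest were cyclin E1 (Ccne1, 7.27 ± 2.81) and cyclin D2 (Ccnd2, 6.12 ± 0.427), again within their spread. All of these are levels of members with 1 transcript row.

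LPS was compared with vehicle to see how these genes stood after 4 h of endotoxin. Of the 10 kept replication members 5 fell and 0 rose, where 17% of all genes tested fell and 19.4% rose (36.4% in either direction). The 5 were the licensing factor Cdt1, both subunits of ribonucleotide reductase (Rrm1 and Rrm2), the clamp Pcna and the helicase subunit Mcm2. Among mitosis genes 1 of 15 rose, Mki67, and 1 fell, Stmn1. Of the 5 genes of G1 control, Ccnd2 rose. The median log2 fold change was −0.28 over the replication members, −0.03 over the mitosis members and −0.01 over G1 control, beside −0.01 over all genes tested. Over 39 further replication genes, given below, the median was −0.08.

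Cdt1, which loads the helicase onto origins, stood at 64.4 and 74.5 CPM in vehicle, 43.5 and 48.0 CPM with LPS, and 52.7 and 55.7 CPM with SGA360+LPS. Its LPS libraries were the lowest, those with SGA360 lay between, and no group overlapped another. The log2 fold change for LPS against vehicle was −0.60 (SE 0.11; adjusted p = 0.0023). Rrm2, the regulated subunit of ribonucleotide reductase, stood at 123 and 101 CPM in vehicle, 83.3 and 85.9 CPM with LPS, and 77.2 and 77.6 CPM with SGA360+LPS. Both vehicle libraries lay above all others, although they differed from each other more than the rest, and the log2 fold change with LPS was −0.40 (SE 0.10; adjusted p = 0.0132).

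Rrm1, the large subunit of the same enzyme, read 245 and 241 CPM in vehicle, 201 and 203 CPM with LPS, and 188 and 190 CPM with SGA360+LPS. Its libraries agreed closely within each group and fell into 3 separate levels, and LPS against vehicle gave −0.27 on the log2 scale (SE 0.07; adjusted p = 0.00925). Pcna had 368 and 340 CPM in vehicle, 283 and 294 CPM with LPS, and 256 and 284 CPM with SGA360+LPS. Its vehicle libraries were the 2 highest, while the LPS and SGA360+LPS libraries overlapped (LPS against vehicle −0.29, SE 0.08; adjusted p = 0.0126). Mcm2 had 110 and 106 CPM in vehicle, 88.5 and 84.2 CPM with LPS, and 83.2 and 90.9 CPM with SGA360+LPS. Here too the groups given LPS overlapped each other below vehicle (−0.32, SE 0.09; adjusted p = 0.0157).

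**Figure D1:**
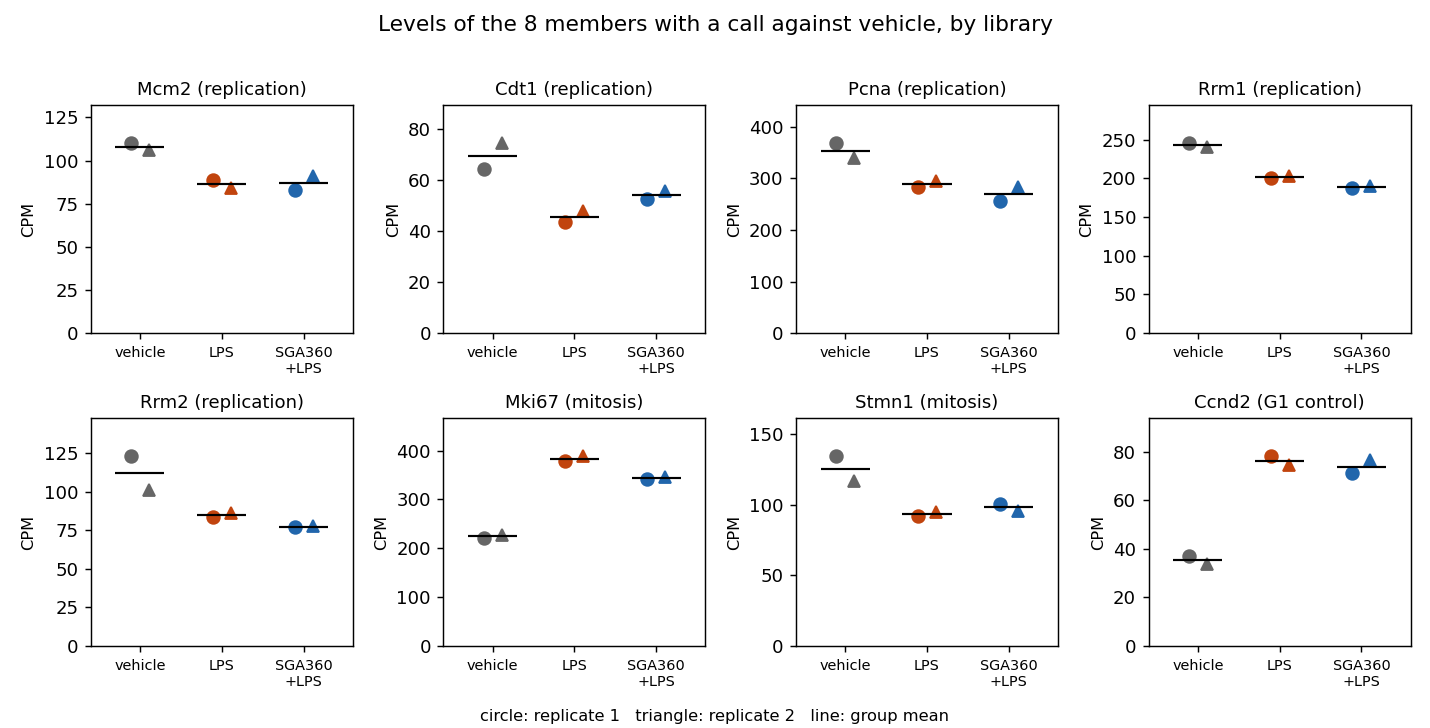
CPM (y axis, from 0) in each library of the 3 groups (x axis) for the 8 members called against vehicle. Circles and triangles are replicates 1 and 2 and lines are group means. The 5 replication genes and Stmn1 are highest in vehicle, while Mki67 and Ccnd2 are lowest there.

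The other replication members had no call, and the 4 of them with 1 row ran from −0.17 to 0.08. The helicase subunits Mcm4, Mcm7 and Mcm3 stood at −0.17 (SE 0.08), −0.15 (SE 0.09) and −0.03 (SE 0.08), so the subunits of this hexamer did not all pass the test. Gins2, part of the active helicase, was at 0.08 (SE 0.16). Mcm6, with only 6 to 26 counts per library, was at −0.84 (SE 0.74). In 7 of the 10 replication members both LPS libraries lay below both vehicle libraries and in 0 above, where 32.7% and 33.1% of all genes did. Summed over the 10, the level was 1296 and 1243 CPM in vehicle and 1052 and 1075 CPM with LPS.

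Where 1 library is left out, its group keeps 1 library, which is assumed to vary like those of the other groups, here and for each such fit given hereafter. With only 1 LPS library the test called fewer of these genes, as of all genes. Without LPS replicate 1, and without LPS replicate 2, Cdt1 kept its call, while Rrm1, Rrm2, Pcna and Mcm2 lost theirs. The 5 called genes stayed below 0 in all 6 fits that left out 1 library, while Mcm3, Mcm6 and Gins2, with no call, changed sign in some. Over the 6 single omissions the log2 fold change of Rrm2 ran from −0.52 to −0.24, that of Pcna from −0.33 to −0.22 and that of Cdt1 from −0.68 to −0.47. The value of −0.24 for Rrm2 came without vehicle replicate 1, and Mcm6 ran from −1.39 to 0.07.

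Mki67, the nuclear antigen of cycling cells, read 221 and 227 CPM in vehicle, 378 and 388 CPM with LPS, and 341 and 347 CPM with SGA360+LPS. The 3 groups did not overlap. It rose 1.71-fold with LPS, or 0.77 on the log2 scale (SE 0.06; adjusted p = 6.16e-06), and it held its call in all 14 alternative fits. Stmn1, whose product destabilises microtubules and is regulated during mitosis, went the other way, from 134 and 117 CPM in vehicle to 92.3 and 94.8 CPM with LPS and 101 and 95.8 CPM with SGA360+LPS. Both vehicle libraries were above the other 4 (LPS against vehicle −0.42, SE 0.09; adjusted p = 0.00503, or 0.0594 without LPS replicate 1).

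The remaining 13 mitosis members had no call. The mitotic kinase Cdk1 was at 87.3 and 90.1 CPM in vehicle and 87.1 and 85.6 CPM with LPS (−0.04, SE 0.08). Its cyclins Ccnb1 and Ccnb2 were at −0.23 (SE 0.15) and −0.38 (SE 0.15), and the S and G2 phase cyclin Ccna2 was at −0.03 (SE 0.09). For Ccnb1 the vehicle libraries themselves were at 82.3 ± 20.8 CPM (SD, n = 2). Topoisomerase Top2a, which untangles replicated chromosomes, had 220 and 221 CPM in vehicle and 237 and 234 CPM with LPS (0.10, SE 0.07), and the chromatin protein gene Hmgb2 was at 0.10 (SE 0.08).

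The kinase Plk1 (−0.01, SE 0.09), the chromosomal passenger kinase Aurkb (−0.00, SE 0.15), the spindle motor Kif11 (−0.08, SE 0.10), the ubiquitin carrier Ube2c (−0.10, SE 0.15), the anaphase activator Cdc20 (−0.25, SE 0.11) and the checkpoint kinase Bub1b (0.18, SE 0.16) made up the rest with 1 row. The range over the 12 members with 1 row and no call was −0.38 to 0.18. Birc5, encoding survivin, had 0 and 8 counts in vehicle and 16 to 23 in the other libraries, and its 0 is in the library that stood apart. Summed over the 15 mitosis members the level was 1425 and 1393 CPM in vehicle and 1551 and 1496 CPM with LPS. Over the 14 other than Mki67, a sum made after its value was seen, it was 1204 and 1166 against 1173 and 1108 CPM. Without vehicle replicate 2, which leaves the library that stood apart as the only vehicle library, 7 of 15 mitosis members were called, where 55.6% of all genes were, and 1 without LPS replicate 1, where 22.1% were.

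**Figure D2:**
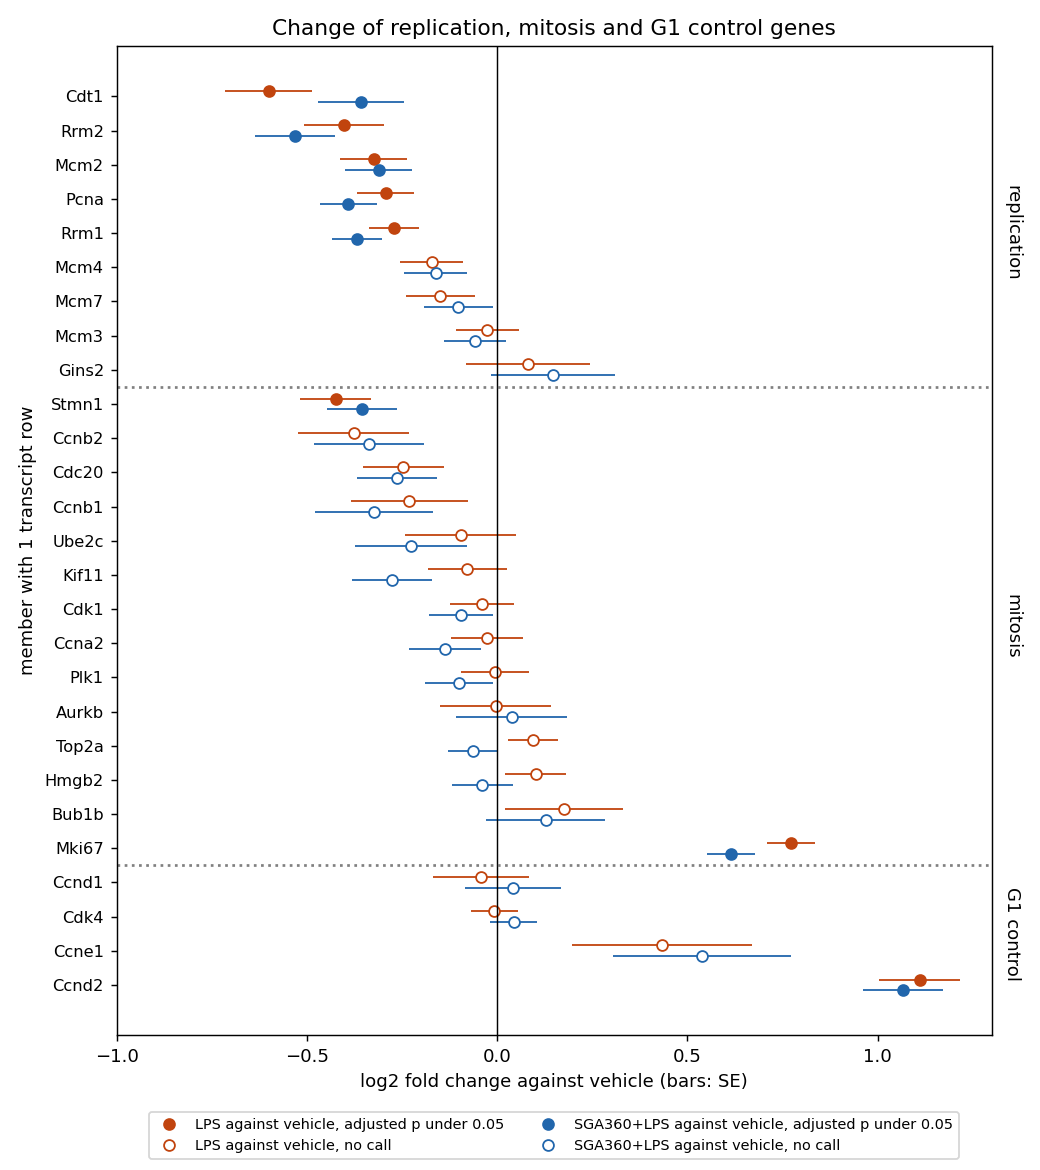
Log2 fold change against vehicle (x axis, bars are SE) of the 27 members with 1 transcript row, by role, for LPS (red) and SGA360+LPS (blue). Filled points passed adjusted p under 0.05. The called replication genes lie between −0.60 and −0.27, most mitosis genes lie near 0, and Mki67 and Ccnd2 stand to the right.

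In G1 control, Ccnd2, which encodes cyclin D2, read 37.1 and 33.6 CPM in vehicle, 78.2 and 74.5 CPM with LPS, and 71.2 and 76.7 CPM with SGA360+LPS. All 4 libraries given LPS were above both vehicle libraries and overlapped among themselves. The rise with LPS was 2.16-fold (log2 1.11, SE 0.11; adjusted p = 1.85e-05) and was called in all 14 alternative fits. Ccnd1, the related cyclin D1 gene, had 49.8 and 64.0 CPM in vehicle and 55.1 and 55.6 CPM with LPS (−0.04, SE 0.13). Their shared partner Cdk4 had 436 and 458 CPM in vehicle and 442 and 447 CPM with LPS (−0.01, SE 0.06). Both genes overlapped between the groups.

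Ccne1, the cyclin E1 gene, had 10.4 and 18.2 CPM in vehicle and 20.4 and 18.5 CPM with LPS (0.43, SE 0.24; adjusted p = 0.185). Its lower vehicle value is that of replicate 1, and without vehicle replicate 2 the log2 fold change was 0.91 (adjusted p = 0.000422, where the alternatives ran from there to 0.624). The E2F factor gene E2f1 had 7 and 3 counts with LPS against 30 and 13 in vehicle, with no call (−1.91, SE 0.80; adjusted p = 0.0906). Without vehicle replicate 2, 3 of the 5 G1 control members were called, where 55.6% of all genes were.

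SGA360+LPS was compared with LPS to see what pretreatment added. No member was called: 0 of 30 passed by edgeR, where 0.0746% of all genes did, and 0 passed by DESeq2. With an unadjusted p under 0.05 there were 2 of 30, where 2.94% of all genes were, Top2a (−0.16, 95% interval −0.31 to −0.01) and Mki67 (−0.16, 95% interval −0.30 to −0.02), each with both SGA360+LPS libraries below both LPS libraries. Top2a read 237 and 234 CPM with LPS and 207 and 215 CPM with SGA360+LPS. Over the mitosis members the median was −0.09 and 11 of 15 lay below 0. Over all genes the median was 0.00 and 4658 of 9389 lay below 0. Over 46 further mitosis genes, listed below, the median was −0.02 and 27 lay below 0.

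Among replication members the difference nearest to the test was that of Cdt1, at 0.24 (95% interval −0.02 to 0.50). Rrm2, Pcna and Rrm1 were at −0.13 (−0.37 to 0.11), −0.10 (−0.27 to 0.07) and −0.10 (−0.24 to 0.05), and Mcm2 at 0.01 (−0.19 to 0.21). Ccnd2 stood at −0.04 (−0.27 to 0.18). For the replication members with 1 row every interval stayed within −0.37 to 0.50, for the mitosis members within −0.46 to 0.37, and for G1 control within −0.41 to 0.62. In 10 of 30 members the SGA360+LPS libraries lay below those of LPS and in 7 above, where 19.6% and 19.9% of all genes did. A p that misses the threshold does not show that the groups were alike, and the interval gives the sizes still possible.

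**Figure D3:**
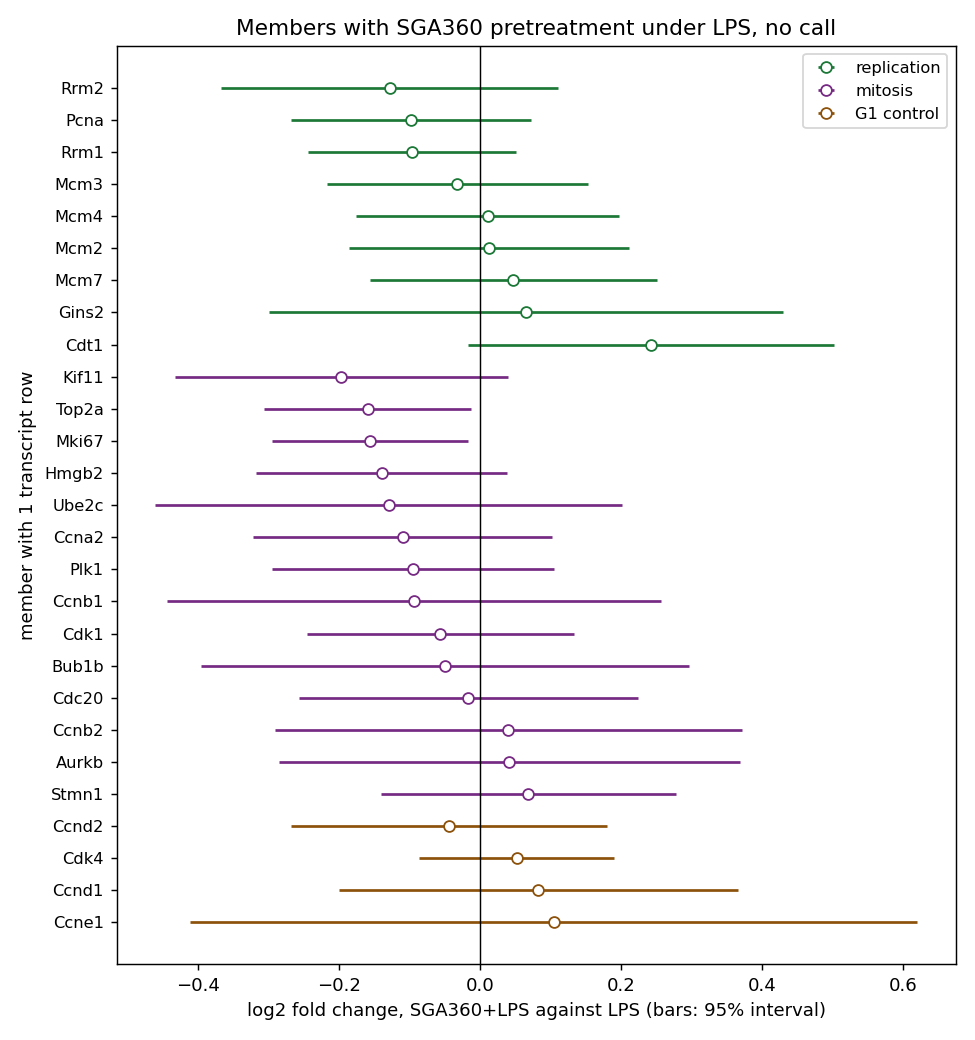
Log2 fold change of SGA360+LPS against LPS (x axis) with its 95% interval for the 27 members with 1 transcript row, coloured by role. Intervals of Top2a and Mki67 lie below 0, Cdt1 has the highest value at 0.24, and no member passed the adjusted test.

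SGA360+LPS against vehicle shares its vehicle libraries with the first comparison, so each set of values is given on its own. Among replication members 5 of 10 fell and 0 rose, where 15.2% and 17.9% of all genes did. The log2 fold changes were −0.53 (SE 0.11) for Rrm2, −0.39 (SE 0.08) for Pcna, −0.37 (SE 0.07) for Rrm1, −0.36 (SE 0.11) for Cdt1 and −0.31 (SE 0.09) for Mcm2, with adjusted p = 0.00322, 0.00278, 0.00172, 0.0341 and 0.0206 by edgeR. Mki67 rose by 0.62 (SE 0.06) and Stmn1 fell by 0.36 (SE 0.09) among 15 mitosis members, and Ccnd2 rose by 1.07 (SE 0.11) among 5 of G1 control. The medians were −0.33, −0.10 and 0.04. Libraries of the groups did not overlap, with SGA360+LPS lower, for 6 of 10 replication and 9 of 15 mitosis members, where 32% of all genes did. They did not overlap the other way for 1 and 2, where 32.9% did.

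The calls of Cdt1 and Mcm2 were the least secure here, since DESeq2 gave adjusted p = 0.0874 and 0.0521, in ranges from 0.00327 to 0.266 and from 0.00503 to 0.263 over the alternatives. Without SGA360+LPS replicate 1 or 2, 2 and 3 replication members were called, where 18.2% and 18.7% of all genes were, and 3 without LPS replicate 1 or 2, where 26% and 26.1% were. Cdt1 was at −0.23 (adjusted p = 0.0859) without vehicle replicate 2, and Pcna lost its call without SGA360+LPS replicate 1 (adjusted p = 0.0692). Of the mitosis members 1 was called without either SGA360+LPS library, and 7 without vehicle replicate 2, where 3 of G1 control and 53.8% of all genes were called. Kif11 had 58.9 and 65.9 CPM in vehicle against 50.4 and 52.7 CPM with SGA360+LPS, with no call (−0.28, SE 0.11; adjusted p = 0.0697), and Cdc20 was at −0.26 (SE 0.11; adjusted p = 0.085).

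Other genes of the same processes were read from lists of 56 replication, 65 mitosis and 35 G1 control and CDK inhibitor genes, of which 39, 46 and 23 were tested. With LPS, 5 of the 39 further replication genes fell (12.8%) and 1 rose (2.56%), both below the shares of all genes, 17% and 19.4%. The clamp loader subunit Rfc2 went from 85.1 ± 5.81 to 52.8 ± 3.98 CPM (−0.68, SE 0.11), and Gmnn, encoding the Cdt1 inhibitor geminin, from 28.6 ± 0.0857 to 16.7 ± 0.834 CPM (−0.77, SE 0.15). Gins1, of the active helicase, fell by 1.16 (SE 0.39), while Pola2, a subunit of polymerase alpha, rose by 0.61 (SE 0.21). The last 2 calls were lost in 7 of 13 and 10 of 14 alternative fits, among them those without any 1 of the 4 libraries given LPS. The median over this list was −0.08.

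Of the 46 further mitosis genes 2 fell (4.35%) and 1 rose (2.17%) with LPS, again below the shares of all genes. The falls were the spindle motor Kif15 (−0.47, SE 0.16) and the condensin subunit Ncapd2 (−0.40, SE 0.09), and the rise was Ube2s, which extends ubiquitin chains for the anaphase-promoting complex (0.42, SE 0.12), with a median of −0.16. Kif15 lost its call in 8 of 14 alternative fits, among them those without any 1 of the 4 libraries given LPS. Without LPS replicate 1 the value of Ube2s was 0.23 (adjusted p = 0.16) and that of Ncapd2 −0.30 (adjusted p = 0.11). In SGA360+LPS against vehicle 3 further replication genes fell (7.69%, where 15.2% of all genes did), Gmnn (−0.88), Rfc2 (−0.78) and the clamp loader subunit Rfc1 (−0.38), and Shmt1, an enzyme of folate metabolism, rose (0.80; adjusted p = 0.0479, or 0.39 with adjusted p = 0.0646 without vehicle replicate 1). There 5 further mitosis genes fell (10.9%, also below 15.2%), among them Knstrn (−0.64), Kif4 (−0.60), Kif15 (−0.58) and the kinetochore motor Cenpe (−0.52), and Ube2s rose. Without vehicle replicate 1 the values of Knstrn, Kif4 and Cenpe were −0.28 (adjusted p = 0.148), −0.30 (adjusted p = 0.131) and −0.22 (adjusted p = 0.127), and their calls were also lost without any 1 of the 4 libraries given LPS.

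In the G1 control list 7 of 23 rose with LPS (30.4%, where 19.4% of all genes did) and 4 fell (17.4%, where 17% did), with a median of 0.08. The stress-induced cell cycle inhibitors Gadd45b and Gadd45a rose by 1.88 (SE 0.09) and 1.49 (SE 0.15), and the antiproliferative gene Btg1 went from 181 ± 3.24 to 560 ± 1.85 CPM (1.63, SE 0.06). Rb1, encoding the retinoblastoma protein that holds back E2F factors, fell by 1.16 (SE 0.16). With SGA360+LPS the values against vehicle were 1.98 for Gadd45b, 1.53 for Btg1, 1.23 for Gadd45a and −1.30 for Rb1, among 6 rises (26.1%, where 17.9% of all genes rose) and 5 falls (21.7%, where 15.2% fell). In SGA360+LPS against LPS, 0 genes of these 3 lists were called, with 2 of 108 (1.85%) at an unadjusted p under 0.05, where 2.94% of all genes were.

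**Figure D4:**
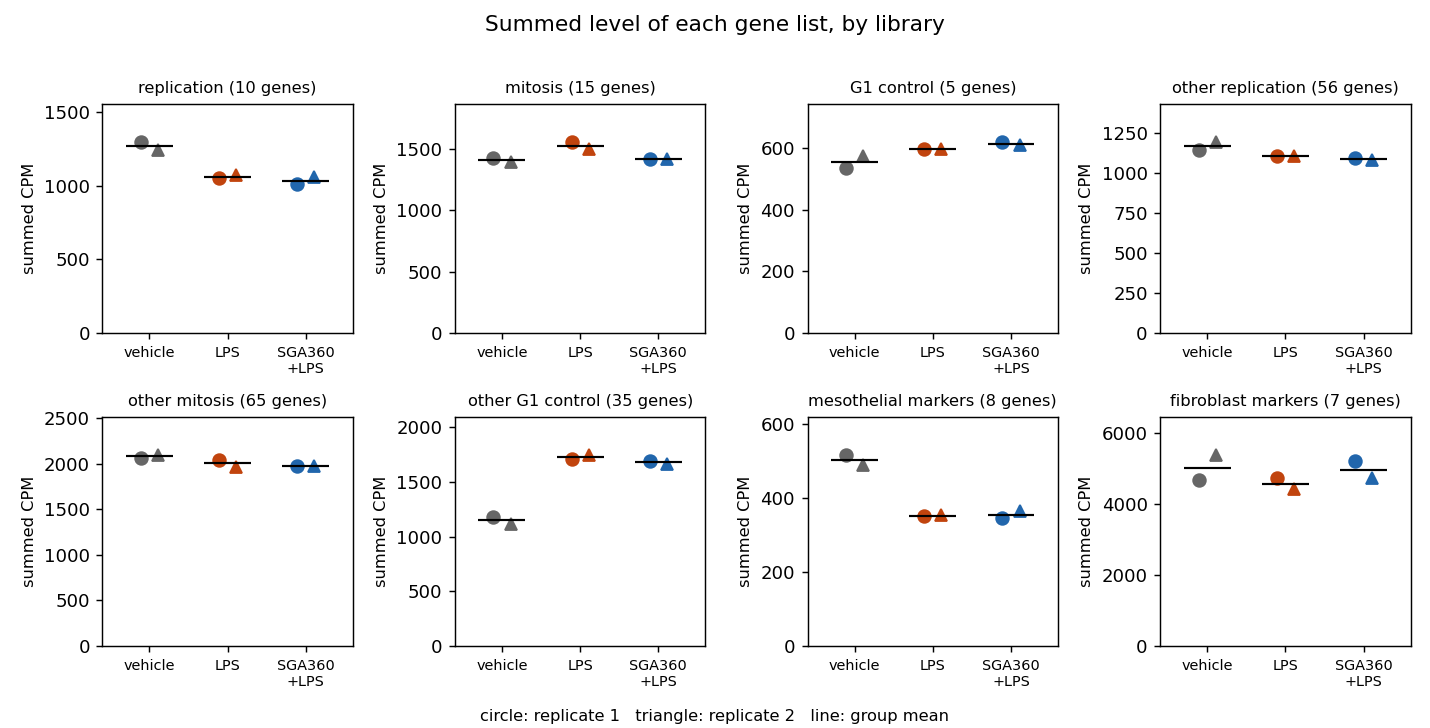
Summed CPM (y axis, from 0) of each gene list in every library of the 3 groups, with the number of genes per list. Circles and triangles are replicates 1 and 2 and lines are group means. The replication members, the further replication genes, the further mitosis genes and the mesothelial markers are highest in vehicle. The G1 control members and the further G1 control genes are lowest there. The mitosis members and the fibroblast markers show neither pattern.

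Cells other than macrophages can also divide in such cultures. All 8 mesothelial markers tested lay below 0 with LPS, where 4751 of all 9389 genes tested did. Among these markers 3 fell (37.5%, where 17% of all genes did), Lrrn4 (−1.04), Upk1b (−0.66) and Upk3b (−0.47). The mesothelial markers summed to 491 to 517 CPM in vehicle, 352 to 354 CPM with LPS and 346 to 365 CPM with SGA360+LPS. None of these markers was at 0. Of the 7 fibroblast markers 5 were tested and 1 fell with LPS (20%, where 17% of all genes did), Col3a1 (−0.41). Fibroblast sums were 4680 to 5379 CPM in vehicle, 4418 to 4725 with LPS and 4737 to 5208 with SGA360+LPS. Pdgfrb was at 0 in all libraries. T cell markers summed to only 10.3 to 11.3 CPM in vehicle, 3.50 to 5.45 CPM with LPS and 4.70 to 4.95 CPM with SGA360+LPS. Among them Lck was at 0 and 2 were tested. Of these 2, Cd28 fell in SGA360+LPS against vehicle (−2.54, adjusted p = 0.0488 by edgeR), where 15.2% of all genes did. The highest sums of 5 other lists were 90.2 CPM for mast cells, 33.4 for B cells, 15.3 for neutrophils, 11.05 for dendritic cells and 0.133 for eosinophils. Of the 5 mast cell markers tested, 1 rose with LPS (20%, where 19.4% of all genes did), Fcer1a (2.35, adjusted p = 0.0429 by edgeR). None of the mast cell markers was called in SGA360+LPS against vehicle. The 2 dendritic cell markers tested, Flt3 and Zbtb46, were at 0.00 and 1.02 with LPS, with no call. The part of these cells in the lower replication genes was not tested.

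In the mm10 build the transcript of Mki67 lies at chr7:135689788-135716379 and that of Ccnd2 at chr6:127125709-127151048, both on the minus strand. On the plus strand lie Cdt1 (chr8:122568015-122573130), Rrm2 (chr12:24708254-24714146), Rrm1 (chr7:102441695-102469771) and Stmn1 (chr4:134468320-134473843). On the minus strand lie Pcna (chr2:132249286-132253180) and Mcm2 (chr6:88883474-88898780). All are annotated as protein-coding, and counts are of reads assigned to their transcripts. In GENCODE, antisense genes overlap Ccnd2, the locus Gm45240 lies opposite Mki67, and Rrm1, Cdt1 and Stmn1 overlap other loci on their own strand. No source used here gives the strand setting, and reads of such neighbours cannot be told apart. Pcna has 2 named pseudogenes that could share its reads.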

How the data were processed

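PolyA-enriched RNA of 6 libraries, 2 per group, was sequenced. Per the submitters' processing notes, the counts in the deposited table (34751 transcript rows) came from TopHat2 2.0.13 and HTSeq 0.5.4p3 on mm10. No source used here gives the strand setting, the annotation version or the handling of shared reads. Exon lengths are those in the deposited table, and positions are given 1-based, as the table's start plus 1.

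Counts were summed per symbol. Genes were kept with filterByExpr (minimum count 10) and TMM factors computed. The main test was edgeR 4.0.16 (R 4.3.3), glmQLFit with glmQLFTest, in 1 model of 3 groups over all libraries, with 3 residual degrees of freedom. SE was taken as |log2 fold change| over the root of F. DESeq2 1.42.0 was 1 of 14 alternatives. The fit was also run on simulated data, in which 200 genes were altered. Of those altered 1.5-fold, 63.6% were recovered in LPS against vehicle and 46.3% in SGA360+LPS against LPS. In SGA360+LPS against vehicle 45.5% were. All simulated libraries had the same spread for a gene, so the larger spread of the vehicle libraries was not covered. Replicates differed by more than sampling noise, with a mean chi-square per gene of 41.6 in vehicle, 5.92 in LPS and 3.98 in SGA360+LPS.

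The members, lists and tests were chosen with earlier results of these data known. Values in every library are given for called members, and others by range. Up to 4 called genes per list and comparison with at least 1 CPM are named. Top2a, Cdk1, Ccne1 and other members with no call, and the markers named, were picked after their values were seen.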

Additional observations from a re-analysis of the deposited data

How the results depend on the processing

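Of 1680 gene values under alternatives, 68 had the other sign, none of them with a call in either fit. In LPS against vehicle, mitosis calls went from 2 to 4 without scaling factors, an alternative chosen after the data were seen. Of all genes 36.8% were called in that fit. In SGA360+LPS against LPS all calls went from 7 to 11 with DESeq2, 17 with no filter and 12 with only those 2 groups in the fit. In SGA360+LPS against vehicle replication calls went from 5 to 3 with DESeq2, where 28.2% of all genes were called. Mitosis calls there went from 2 to 4 with no filter and 6 without scaling factors, where 23.4% and 33.9% of all genes were. G1 control calls there went from 1 to 2 with no filter, beside the same 23.4%. Fold changes of members with few counts moved widely when 1 library was left out, that of Birc5 in LPS against vehicle between 1.26 and 7.09. Leaving out 1 library gave, in LPS against vehicle, 2091 to 5494 calls in all, 1 to 6 for replication, 1 to 7 for mitosis and 1 to 3 for G1 control. In SGA360+LPS against LPS it gave 0 to 16 calls in all, and 0 for each role. In SGA360+LPS against vehicle it gave 1831 to 5315 in all, 2 to 5, 1 to 7 and 1 to 3. Fewer libraries leave fewer degrees of freedom. Even so, calls over all genes against vehicle were more without either vehicle library and fewer without any other library. The cause of these shifts was not tested.

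Replicate numbers are not shown to pair libraries: deviations of same-numbered libraries correlated at −0.01 for vehicle and LPS, 0.01 for vehicle and SGA360+LPS and 0.16 for LPS and SGA360+LPS. With the replicate number as a block, 3434, 5 and 3136 genes were called in the 3 comparisons, against 3413, 7 and 3107. Member calls kept their number with the block, apart from mitosis in SGA360+LPS against vehicle, where 3 were called. The spread shared by all comparisons (common biological coefficient of variation 0.0951) was 0.054 for LPS and SGA360+LPS alone, so small differences between those groups may go undetected. Vehicle replicates differed more than those of LPS and SGA360+LPS (mean chi-square per gene 41.6 against 5.92 and 3.98). The shared spread, and with it the SE and adjusted p, may therefore be too small in comparisons against vehicle.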
